A study of Caenorhabditis elegans with 6 samples.

Results

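The 10 genes described here encode 6 enzymes of the lower part of glycolysis in Caenorhabditis elegans, taken by symbol from a table of 20189 protein-coding genes. They are the 4 genes for glyceraldehyde-3-phosphate dehydrogenase (GAPDH), gpd-1, gpd-2, gpd-3 and gpd-4, and the genes for aldolase (aldo-1 and aldo-2), triosephosphate isomerase (tpi-1), phosphoglycerate kinase (pgk-1), enolase (enol-1) and pyruvate kinase (pyk-1). They were chosen with their values in the comparison below already known, so those values, and the calls of the fit across all genes given once for them further on, are a description and support nothing.

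Glycolysis splits glucose into trioses and oxidises them to pyruvate. Aldolase makes the trioses, triosephosphate isomerase interconverts them, and GAPDH, phosphoglycerate kinase, enolase and pyruvate kinase act in the steps that follow, of which the kinases yield ATP. In this worm gpd-2 and gpd-3 are known as the GAPDH genes of larvae and adults, strongest in body wall muscle. The genes gpd-1 and gpd-4 are known as the minor forms, expressed in embryos.

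RNA was sequenced from whole hermaphrodites at L4, the last larval stage. All animals, controls included, were heterozygous for rpl-36A(P55Q), an altered large-subunit ribosomal protein gene, over mIn1, a balancer chromosome II that carries the unaltered copy. Eggs were placed on plates with 500 µg/ml cycloheximide (CHX), a blocker of translation elongation, and animals were collected after 3 days (n = 3 samples), or on plates without CHX, with collection after 2 days (n = 3), all at 23 °C. Drug and age therefore changed together, and what belongs to each cannot be told apart. The labels do not say whether replicates came from separate cultures, so errors and p-values describe only the spread among these samples, and that spread may be technical.

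Libraries held 385500 to 414781 counts in coding sequence with CHX and 313767 to 360924 without it. The unit of level is CPM, a gene's counts relative to the effective size of its library. A gene entered the fit across all genes (edgeR's quasi-likelihood test) when enough of its libraries held about 10 counts. That left 5641 genes and 9 of the 10 described here, while gpd-4 fell below the limit. The gene gpd-1 passed it only through the CHX libraries. At a Benjamini-Hochberg adjusted p of 0.05 the fit called 25.2% of tested genes, 10.3% higher and 14.9% lower with CHX. This split rests on the scaling: 579 genes were called higher and 840 lower with TMM factors, and 851 higher and 605 lower when only library totals were used. That choice also raised the middle log2 fold change over tested genes to 0.18, against 0.02.

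The GAPDH genes lie at separate places in the WBcel235 genome. The gene gpd-1 (WBGene00001683) spans positions 10394114 to 10395349 of chromosome II, and gpd-4 (WBGene00001686) spans 10171255 to 10172497 of the same chromosome, 221.6 kb away. Both are on the plus strand. On the minus strand of chromosome X, gpd-2 (WBGene00001684; 3113434 to 3114771) is followed by gpd-3 (WBGene00001685; 3112083 to 3113382), with 51 bases between them. These genes are known to be transcribed together with mai-1, for a homologue of a mitochondrial ATPase inhibitor, as an operon. Each GAPDH gene has 3 exons and a coding sequence of 1026 bases, so their levels can be compared directly. The members of each pair are close copies, and the sources used here do not say how reads matching more than 1 place were counted. The split within a pair is therefore uncertain, and so is the sum of a pair if reads that match both copies were dropped.

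The GAPDH genes that are minor in larvae were higher in animals on CHX, and the others were lower. For gpd-1 there were 16, 20 and 17 counts in the CHX libraries, against 1, 2 and 1 in the libraries without CHX. These correspond to 41.8, 51.8 and 40.9 CPM with CHX and 3.28, 6.12 and 3.54 CPM without it. Every CHX library lay far above every library without CHX, where gpd-1 was at or under the floor of 3 counts. The ratio of summed counts, scaled to effective library sizes, was 10.2, with an exact 95% counting interval of 3.77 to 38.9. The fitted log2 fold change was 3.26 (SE 0.70).

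The other embryonic form, gpd-4, had 10, 14 and 10 counts with CHX, against 4, 4 and 0 without it. The CHX libraries stood at 26.1, 36.3 and 24.1 CPM and the others at 13.1, 12.2 and 0 CPM. The groups did not overlap, and the library without CHX at 0 could hold up to 10.6 CPM at the floor of 3 counts. The ratio of summed counts was 3.28 (exact 95% counting interval 1.49 to 8.20). This interval overlaps that of gpd-1. Counting intervals cover counting error only, since reads are not independent molecules.

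The larval forms were lower with CHX. The gene gpd-2 stood at 49.6, 77.8 and 77.0 CPM with CHX, against 108, 144 and 81.3 CPM without it. The highest CHX library lay just under the lowest library without CHX, so the groups were separate by a small margin. The log2 fold change was -0.71 (SE 0.33). Across 13 alternative settings of the fit it ran from -0.88 to -0.47. For gpd-3 the values were 86.2, 119.2 and 77.0 CPM with CHX, against 141, 135 and 141 CPM without it. Here the libraries without CHX were close together and all higher (log2 fold change -0.56, SE 0.28). Across the same settings the log2 fold change of gpd-3 ran from -0.76 to -0.41. Within this pair the proportions were alike, with gpd-2 at 36.5% to 50.0% of the counts of the pair with CHX and 36.5% to 51.6% without it.

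**Figure D1:**
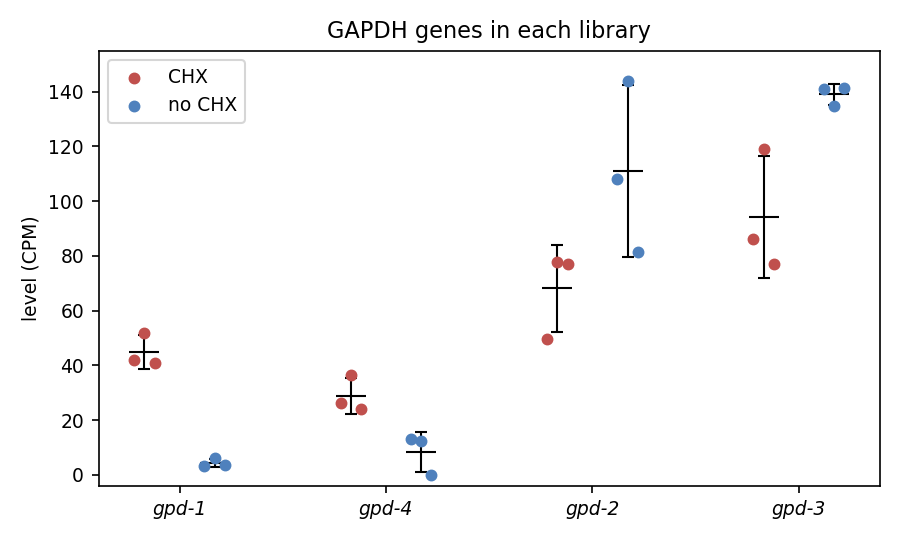
Levels of the 4 GAPDH genes in CPM (vertical axis) in each of the 3 CHX libraries (red) and the 3 libraries without CHX (blue); horizontal marks are means and error bars SD (n = 3). The genes gpd-1 and gpd-4 were higher with CHX in every library, while gpd-2 and gpd-3 were lower, with the closest approach for gpd-2 (77.8 CPM against 81.3 CPM).

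Put together, gpd-1 and gpd-4 summed to 73.7 ± 12.6 CPM with CHX, against 12.8 ± 8.06 CPM without it (SD, n = 3). The sum of gpd-2 and gpd-3 was 162 ± 31.4 CPM with CHX and 250 ± 28.0 CPM without it. Both sums separated the groups, in opposite directions. The total over the 4 genes did not separate them. It was 204, 285 and 219 CPM with CHX, against 266, 297 and 226 CPM without it, and the ranges overlapped. Means of the total were 236 ± 43.3 CPM with CHX and 263 ± 35.5 CPM without it.

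As a share of all GAPDH counts, gpd-1 and gpd-4 held 33.3% (26 of 78), 30.9% (34 of 110) and 29.7% (27 of 91) in the CHX libraries. In the libraries without CHX they held 6.17% (5 of 81), 6.19% (6 of 97) and 1.56% (1 of 64). The exact 95% binomial intervals ran from 20.5% at the lowest to 44.9% at the highest with CHX, and from 0.0396% to 13.8% without it. These intervals cover counting error only, and the genes were chosen on this split, so nothing is read from their distance. Group means were 31.3% ± 1.86 with CHX and 4.64% ± 2.67 without it (SD, n = 3). A share within a library does not depend on how libraries are scaled. The number of reads behind it is small, 64 to 110 per library.

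**Figure D2:**
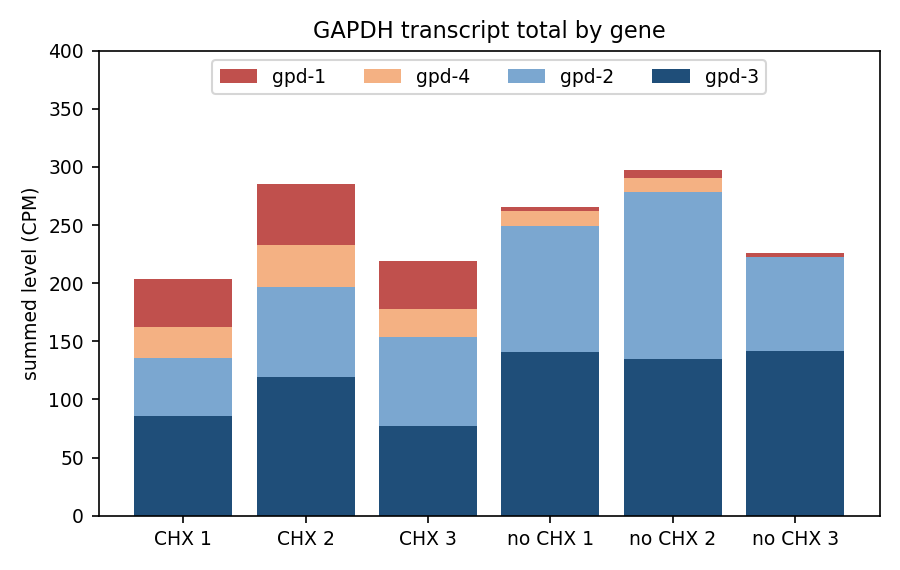
Summed level of the GAPDH genes in CPM (bar height) in each library, split by gene, with the CHX libraries on the left. The totals overlap between groups, 204 to 285 CPM with CHX and 226 to 297 CPM without it, while the upper part of the bars, gpd-1 and gpd-4, is larger in every CHX library.

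The genes next to gpd-1 and gpd-4 were looked at by position, as the 3 nearest protein-coding genes on each side of both, 12 in all. Of these 3 had no count in any library and 4 were tested. None of the 4 was called by edgeR, by DESeq2 or by limma-voom, and 2 had an unadjusted p under 0.05 in edgeR's test. Around gpd-4, daf-19 was at 34.5 ± 3.64 CPM with CHX and 18.6 ± 1.01 CPM without it, F33H1.3 at 192 ± 22.3 CPM with CHX and 130 ± 46.3 CPM without it, and F33H1.4 at 254 ± 14.3 CPM with CHX and 186 ± 19.7 CPM without it (SD, n = 3). For these genes every CHX library lay above every library without CHX, as for 19.5% of all tested genes. The neighbours were added after values were seen, so nothing is read from this. On the upstream side of gpd-1, the tested gene T09F3.2 was at 78.0 ± 18.6 CPM with CHX and 70.4 ± 37.1 CPM without it, with overlap. Among those too thinly counted to be tested, T09F3.5, downstream of gpd-1, had 3, 19 and 22 counts with CHX, against 3, 3 and 5 without it, and ztf-27 had 5, 7 and 10 counts with CHX, against 0, 6 and 2 without it. The other untested neighbours had at most 1 count in any library. On chromosome X, mai-1, whose transcript overlaps that of gpd-2 by 104 bases, had 3 counts in all with CHX, all in replicate 2, and 0 without it, so it was too thinly counted to be set beside gpd-2 and gpd-3.

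Upstream of GAPDH, aldolase was also split between a minor and a major gene, and here both were lower with CHX. The gene aldo-1 (WBGene00011474; chromosome III, 13563346 to 13564990, minus strand, 3 exons) stood at 75.7, 98.5 and 111 CPM with CHX, against 180, 181 and 120 CPM without it. In CPM no CHX library reached the lowest library without CHX. With library totals alone, CHX replicate 3 lay above replicate 3 without CHX. The log2 fold change was -0.76 (SE 0.28). Over 13 alternative settings its log2 fold change ran from -0.92 to -0.60.

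The major gene, aldo-2 (WBGene00017166; chromosome III, 5874678 to 5876470, minus strand, 4 exons), was measured from 241 to 280 counts per library. It stood at 700, 726 and 618 CPM with CHX, against 859, 790 and 852 CPM without it, with no overlap (log2 fold change -0.29, SE 0.14). Scaled to totals over all genes instead, a CHX library lay just above a library without CHX. The alternative settings gave aldo-2 values from -0.33 to -0.13, the smallest with library totals. Its locus overlaps F01F1.3 on the other strand, and the use of strand in counting is not given in the sources used here. The share of aldo-1 in aldolase counts overlapped between groups, 9.76% to 15.2% with CHX and 12.4% to 18.6% without it. Unlike the GAPDH genes, the aldolase genes therefore kept overlapping proportions, and their sum was 776 ± 47.7 CPM with CHX and 994 ± 39.1 CPM without it (SD, n = 3).

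Triosephosphate isomerase, from tpi-1 (WBGene00006601; chromosome II, 12036842 to 12039139), did not separate the groups. It was at 193, 179 and 204 CPM with CHX, against 197, 291 and 240 CPM without it (log2 fold change -0.34, SE 0.22). Replicate 1 without CHX lay within the CHX range.

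Below GAPDH, pgk-1 (WBGene00020185; chromosome I, 3867541 to 3869109) was at 131, 101 and 93.8 CPM with CHX, against 115, 178 and 194 CPM without it. Phosphoglycerate kinase thus overlapped between groups through CHX replicate 1 and replicate 1 without CHX. The log2 fold change was -0.58 (SE 0.27), and -0.78 when replicate 1 without CHX was left out.

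Enolase was the most abundant of the enzymes. The gene enol-1 (WBGene00011884; chromosome II, 8930985 to 8933799, plus strand) had 396 to 467 counts per library with CHX and 411 to 558 without it. Its levels were 1034, 1045 and 1123 CPM with CHX, against 1829, 1488 and 1453 CPM without it. All CHX libraries lay below all others by a wide margin. The log2 fold change was -0.57 (SE 0.13), with values from -0.64 to -0.41 over the alternative settings.

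Pyruvate kinase from pyk-1 (WBGene00009126; chromosome I, 9170254 to 9177475, plus strand) was at 240, 231 and 195 CPM with CHX, against 177, 306 and 233 CPM without it. The groups overlapped, and the log2 fold change was -0.11 (SE 0.22). Its sign was positive with library totals (0.04) and without replicate 2 without CHX (0.11), so no direction is given for it. A small RNA gene, F25H5.9, overlaps the locus. The second pyruvate kinase gene, pyk-2, is described with the other pathway genes below.

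Across the genes described here, of which 9 were tested, 3 were past the threshold (25.2% of all tested genes were): 1 was past the threshold and higher (gpd-1, against 10.3% of all tested genes) and 2 were past it and lower (enol-1 and aldo-1, against 14.9%). The gene gpd-1 had entered the fit only through the CHX libraries. No setting of the fit called gpd-2, gpd-3, aldo-2, pyk-1 or tpi-1. In simulated data the main fit called 4 of 67 genes changed 1.5-fold, so changes of that size are mostly missed. The aldo-1 call was lost in 11 of 13 alternative settings, among them DESeq2, library totals and each library left out other than replicate 3 without CHX, and pgk-1 was called lower when replicate 1 without CHX was left out. Over the 9 genes, fitted log2 fold changes were below 0 for 8 of 9, with a median of -0.56, against 49.2% of all tested genes and a median of 0.02. Groups did not overlap in CPM for gpd-1 and for 5 genes that were lower (gpd-2, gpd-3, aldo-1, aldo-2 and enol-1). Of all tested genes, 19.5% were higher and 20.2% lower without overlap in CPM. With library totals over the tested genes alone, gpd-2 and aldo-1 overlapped between groups. With totals over all genes, aldo-2 overlapped as well. Since the genes were chosen on this comparison, nothing is read from these calls and counts. All 10 together took 0.256% to 0.263% of a library's counts with CHX and 0.299% to 0.319% without it.

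Levels between genes were compared per kb of coding sequence. With CHX the order began with enol-1 at 763 ± 34.9, aldo-2 at 619 ± 51.0 and tpi-1 at 258 ± 17.3 CPM per kb (SD, n = 3). Without CHX the same genes led, at 1137 ± 149, 757 ± 34.4 and 326 ± 63.4 CPM per kb. Each of these 3 lay above the next without overlap in both groups. With CHX the following genes, gpd-3, pgk-1, aldo-1, pyk-1, gpd-2 and gpd-1, formed a run from 91.7 to 43.7 CPM per kb in which each range overlapped that of its neighbour, and gpd-4 came last at 28.1 ± 6.38 CPM per kb, below gpd-1 without overlap. Without CHX the run was aldo-1, gpd-3, pgk-1, gpd-2 and pyk-1, from 146 to 87.1 CPM per kb. It was followed, after a gap, by gpd-4 at 8.24 ± 7.15 and gpd-1 at 4.20 ± 1.53 CPM per kb, whose ranges overlapped. For pyk-1 the order depends on the transcript used, 2742 bases of coding sequence and 1 of 6 annotated.

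**Figure D3:**
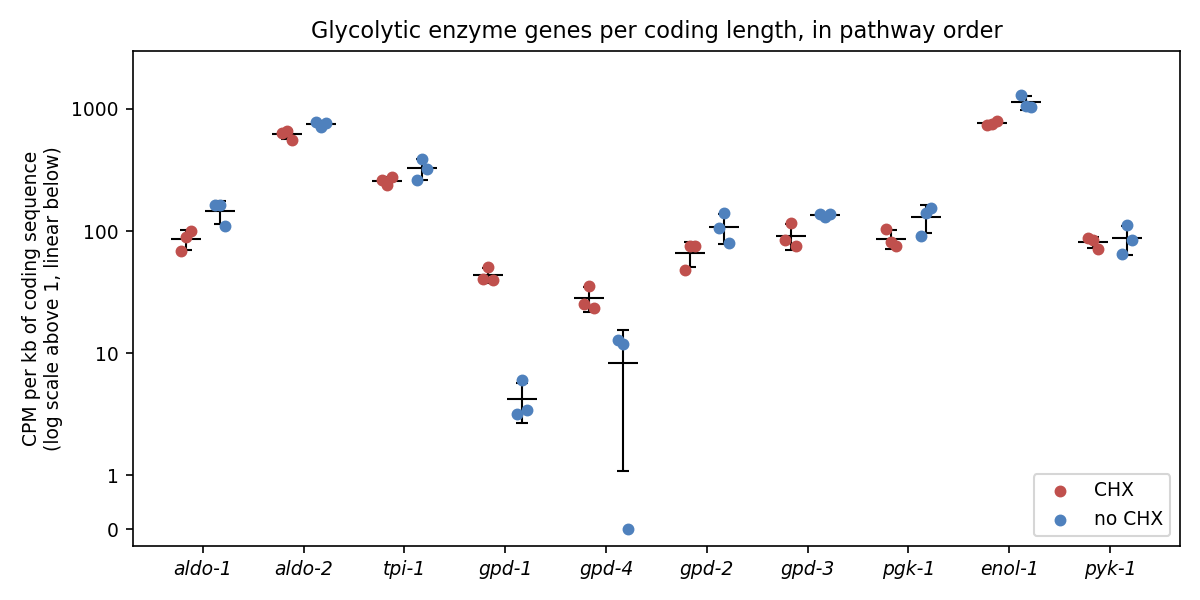
Levels of the 10 genes in CPM per kb of coding sequence (log axis above 1, linear below) in the CHX libraries (red) and those without CHX (blue), in the order of the pathway; marks and bars are mean and SD (n = 3). The level of enol-1 was highest in both groups (763 and 1137 CPM per kb), and gpd-1 shows the widest separation between groups.

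The other genes of glucose metabolism were taken from lists chosen with earlier results of these data known. Of 50 listed genes 44 were tested, and 1 rose and 11 fell with CHX, with a median log2 fold change of -0.27 (background 10.3% higher and 14.9% lower, median 0.02). The number called was 5 without CHX replicate 2 and 5 without CHX replicate 3. P-values below are from edgeR's quasi-likelihood test with Benjamini-Hochberg adjustment over all 5641 genes.

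In glycolysis and gluconeogenesis 4 of 15 tested genes fell by edgeR's test. The second pyruvate kinase gene, pyk-2, was at 44.3 ± 13.9 CPM with CHX and 99.7 ± 42.8 CPM without it (log2 fold change -1.17, SE 0.37, adjusted p 0.0216). The share of pyk-1 in the counts of both pyruvate kinase genes was 87.6%, 85.6% and 76.4% with CHX and 66.7%, 67.6% and 78.6% without it, which overlapped. Phosphoenolpyruvate carboxykinase from pck-2 (920 ± 98.6 CPM with CHX, 1206 ± 49.8 CPM without it), pyruvate carboxylase from pyc-1 (log2 fold change -0.51, SE 0.17) and phosphoglycerate mutase from ipgm-1 (-0.56, SE 0.21, adjusted p 0.0492) also fell. These last 3 calls held in 6, 3 and 2 of 13 alternative settings, in that order. The number lower in this list was 0 without CHX replicate 1 or CHX replicate 2, 1 without CHX replicate 3 and 2 without replicate 1 without CHX. The pyk-2 call was also lost without replicate 2 without CHX (adjusted p 0.202 by edgeR), and that of pyc-1 without replicate 1 or replicate 3 without CHX. The most abundant genes not called belong to the first steps. Hexokinase hxk-1 was at 304 ± 28.6 CPM with CHX and 220 ± 45.3 CPM without it, and the isomerase gpi-1 at 247 ± 49.0 CPM with CHX and 247 ± 72.4 CPM without it. By edgeR's test hxk-1 was called higher with library totals (adjusted p 0.0192) and without replicate 1 without CHX (0.0272).

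Of 8 genes that bring pyruvate into mitochondria or oxidise it, mpc-1, for a subunit of the mitochondrial pyruvate carrier, fell (log2 fold change -0.70, SE 0.18, adjusted p 0.00540). The pyruvate dehydrogenase complex genes dlat-1 (302 ± 5.05 CPM with CHX, 358 ± 104 CPM without it) and dld-1 (log2 fold change -0.05, SE 0.20) were not called. In the pentose phosphate pathway 2 of 6 genes fell, transaldolase tald-1 (log2 fold change -0.66, SE 0.21, adjusted p 0.0190) and transketolase tkt-1 (-0.44, SE 0.15, adjusted p 0.0293). By edgeR's test, mpc-1 was not called without CHX replicate 3 or replicate 1 without CHX (adjusted p 0.0521 and 0.0808). Likewise tald-1 was not called without CHX replicate 2 or 3 (0.0543 and 0.133), and tkt-1 without any of the CHX replicates or replicate 3 without CHX (0.0616 to 0.137). The calls of tald-1 and tkt-1 were also lost with library totals and with no low-count filter. Of 13 alternative settings, 11 called mpc-1, 9 called tald-1 and 5 called tkt-1. The first enzyme of the pentose phosphate pathway, gspd-1, was at 116 ± 21.9 CPM with CHX and 164 ± 71.4 CPM without it, and T25B9.9, for the dehydrogenase after it, at 110 ± 46.9 CPM with CHX and 128 ± 29.2 CPM without it, neither called.

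With all samples and TMM factors, the 1 gene that rose among these lists belonged to storage sugars. T04A8.7, annotated by similarity as a glycogen branching enzyme, was at 201 ± 27.1 CPM with CHX and 81.8 ± 7.18 CPM without it (log2 fold change 1.29, SE 0.26, adjusted p 5.18e-04), and it was called in all 13 alternative settings. Glycogen phosphorylase, pygl-1, was at 945 ± 80.1 CPM with CHX and 761 ± 57.7 CPM without it, not called except with library totals. In the same list aagr-3 (log2 fold change -0.43, SE 0.17) was not called with all samples, but was called lower without CHX replicate 1 or replicate 3 without CHX. Among genes related to acid alpha-glucosidase, which digests glycogen in lysosomes, aagr-2 (log2 fold change -0.93, SE 0.19, adjusted p 3.94e-04) and aagr-4 (-1.23, SE 0.24, adjusted p 3.49e-04) fell. Each was called in all 13 alternative settings. The glycerol-3-phosphate dehydrogenase genes included gpdh-2, at 92.3 ± 15.1 CPM with CHX and 189 ± 52.2 CPM without it (log2 fold change -1.03, SE 0.27, adjusted p 0.00595 by edgeR's test). Without replicate 3 without CHX the adjusted p of gpdh-2 was 0.0582. In the same list gpdh-1 was called lower (19 counts with CHX, 50 without it, adjusted p 0.0490) although its groups overlapped, and that call was lost in 8 of 13 settings, among them without CHX replicate 2, CHX replicate 3 or any replicate without CHX. Its log2 fold change was -1.72, and -3.72 without CHX replicate 1. T25G3.4 was at 160 ± 23.3 CPM with CHX and 158 ± 25.1 CPM without it.

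**Figure D4:**
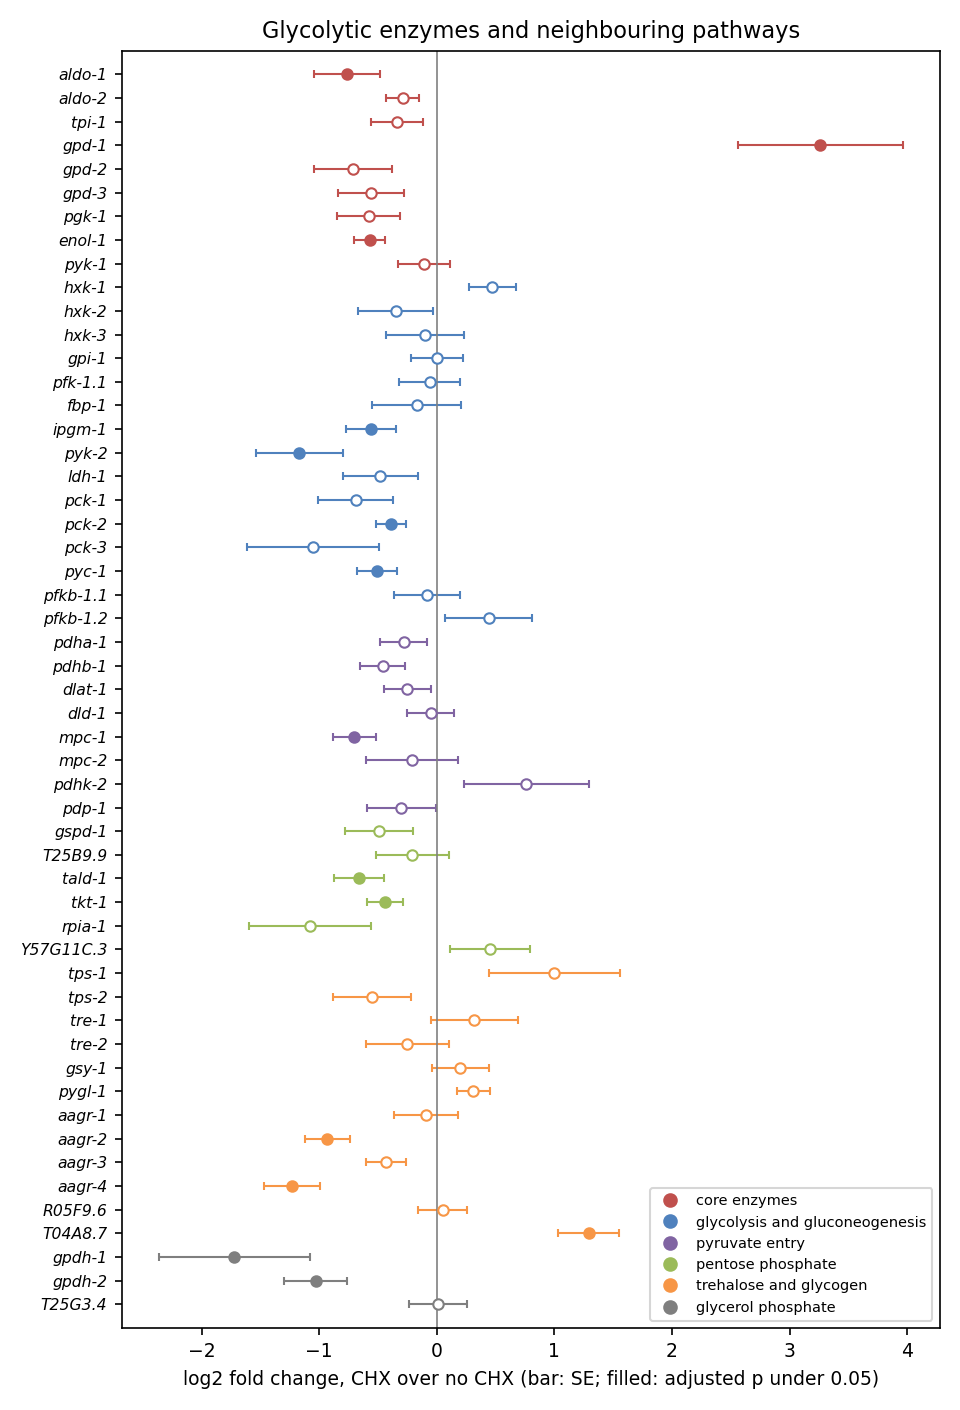
Fitted log2 fold change of CHX over no CHX (horizontal axis; bars are SE, n = 3 per group) for 9 of the 10 genes described here (core enzymes) and 44 other genes of glucose metabolism; filled circles are past an adjusted p of 0.05 in the fit across all genes. The gene gpd-1 (3.26) lies apart on the right, T04A8.7 (1.29) is the other filled circle above 0, and the remaining filled circles are below 0.

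Markers of several tissues also differed between the groups, where 10.3% of all tested genes were called higher and 14.9% lower with CHX. In whole animals fewer cells of a type and less RNA per cell cannot be told apart. All 14 body wall muscle markers were lower with CHX, and their sum was 9840.0 to 10489.6 CPM with CHX and 13596 to 18672 CPM without it. The most abundant were unc-54, for a myosin heavy chain (2579 ± 265 CPM with CHX, 4329 ± 838 CPM without it), and act-4, for an actin (2451 ± 14.5 CPM with CHX, 4318 ± 1043 CPM without it). The number of muscle markers called was 9 without CHX replicate 2, 7 without CHX replicate 3, 7 without replicate 2 without CHX and 7 with library totals. The muscle sum was lower together with those of gpd-2 and gpd-3 and of the aldolase genes. The intestine, epidermis and sperm sums were lower as well, so muscle is not singled out. All 12 oocyte and eggshell markers were higher, with a sum of 11637 to 12693 CPM with CHX and 3442 to 4684 CPM without it, led by cpg-1 and cpg-2, and all 12 were called with each library left out. The direction is that of gpd-1 and gpd-4, and the germline sum given below shares it. The part of any of these tissues in the GAPDH values was not tested.

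Other tissues moved as well, where 10.3% of all tested genes were called higher and 14.9% lower with CHX. Of 10 germline markers 4 rose and 1 fell, with a sum of 5173 to 5472 CPM with CHX and 4398 to 4793 CPM without it (2 rose without CHX replicate 2 or 3, and 7 with library totals); the most abundant, cgh-1 and gld-1, were not called. Sperm markers summed to 376 to 524 CPM with CHX and 955 to 1046 CPM without it (4 of 6 tested lower, ssq-2 and gsp-3 among them). Intestinal markers summed to 5104 to 5495 CPM with CHX and 8258 to 8844 CPM without it (5 of 6 lower, asp-1 and cpr-6 among them). Of 6 tested epidermal markers 3 were lower, among them dpy-13, and 1 was higher (0 without CHX replicate 3), with col-19 not called. The sums of neuron markers (led by egl-3 and egl-21) and of pharynx markers (led by myo-1 and myo-2) overlapped between groups. Every matched marker had a count in at least 1 library, and the summed level of each list was above 0 in all 6.

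**Figure D5:**
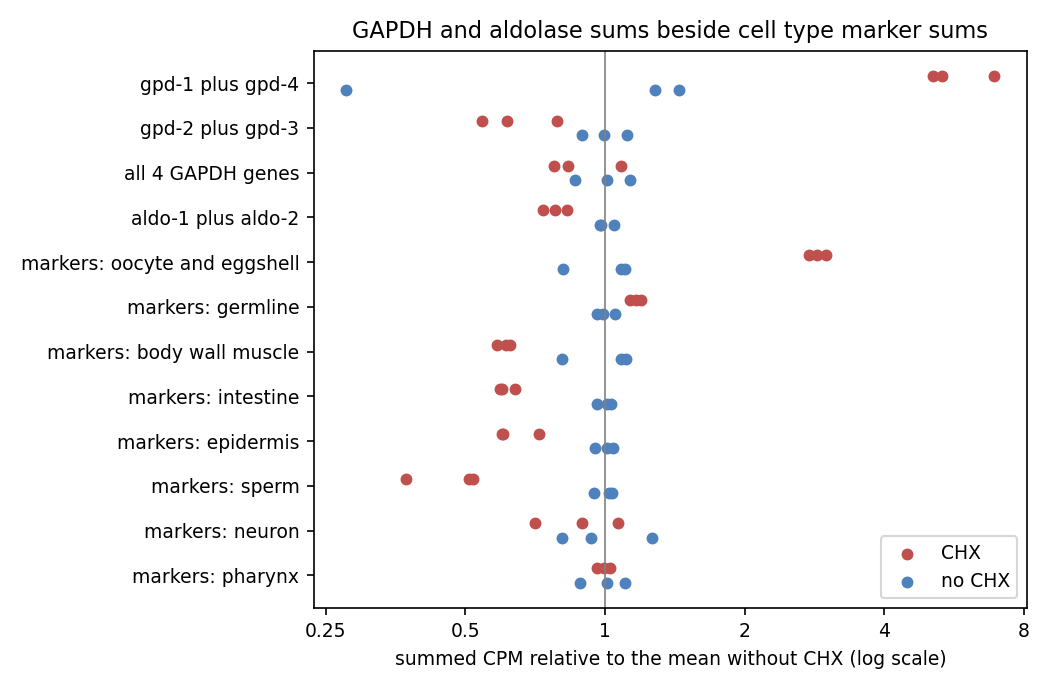
Summed CPM of the GAPDH pairs, all GAPDH genes, the aldolase genes and 8 lists of cell type markers, each divided by its mean without CHX (log axis), with a point per library (CHX red, no CHX blue). The gpd-1 plus gpd-4 sum lies to the right with CHX, as do the oocyte markers and, by less, the germline markers. To the left lie the gpd-2 plus gpd-3 and aldolase sums and the muscle, intestine, epidermis and sperm markers. The GAPDH total and the neuron and pharynx markers overlap between groups.

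Genes with profiles most like those of gpd-1 and gpd-2 were found by the distance between mean-centred log2(CPM + 2) values over the 6 samples. Among 5568 genes at least as abundant as gpd-1, the nearest were nos-2 (distance 0.825), D1054.10, F18A1.7, ugt-31 and clec-87 (distance 1.03), where the median distance of all was 3.67. The first of these, nos-2, for a Nanos-type RNA regulator of the germline, was at 115, 85.5 and 111 CPM with CHX and 9.83, 18.4 and 17.7 CPM without it. Among 2324 genes of at least 100 CPM, those nearest to gpd-2 were T02G5.7 (distance 0.331), unc-87 (0.332), zyx-1, ZK1320.2 and T20H4.5 (0.361), with a median of 1.31. The nearest, T02G5.7, was at 78.3, 135 and 125 CPM with CHX and 167, 208 and 159 CPM without it. The next, the muscle gene unc-87, for a thin filament protein, was at 188, 295 and 279 CPM with CHX. Without CHX unc-87 was at 406, 612 and 385 CPM. All these genes were picked for their likeness over these same 6 samples, so the likeness is a description and supports nothing. The other genes near gpd-1 and gpd-2 were not assigned to a tissue.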

How the data were processed

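The deposited values are whole-number read counts in coding sequence, 1 transcript per gene, on WBcel235 per the file headers. Total RNA from a Trizol extraction was depleted of ribosomal RNA by RNase H before SMARTER library preparation, per the labels' protocols. WBcel235 and DESeq2 are named in the submitters' processing notes. The aligner, the counter, and how strand and multiply matching reads were treated, are not given in the sources used. Groups and replicate numbers came from the titles.

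The main test was the robust quasi-likelihood fit of edgeR 4.0.16 (R 4.3.3) with TMM scaling, after filterByExpr (minimum count 10, minimum total 15; 5641 genes and 94.1% of counts kept), with Benjamini-Hochberg adjustment over all tested genes, threshold 0.05. The standard error is the absolute log2 fold change over the square root of F. Alternatives were DESeq2 1.42.0, limma-voom (3.58.1), other scalings and filters, a replicate block and each library left out. Fits were tested on simulated data. Where a group held few counts, the ratio of sums with an exact 95% interval is given. Coding lengths and exons came from Ensembl's annotation of the same build, by transcript name or, where that failed, by position.

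The genes and lists were chosen with earlier results of these data known. Genes named are the 10 described, mai-1, every other pathway gene past the threshold with the 2 most abundant per list that were not, the 2 most abundant markers per list, and the 5 nearest to gpd-1 and to gpd-2; neighbours by position were added after values were seen. Differences between replicates exceeded sampling noise for every pair.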

Additional observations from a re-analysis of the deposited data

How the results depend on the processing

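Leaving out 1 library gave 945 (without CHX replicate 3) to 1271 genes that differed, against 1419 with all, and 5 to 11 other pathway genes called, against 12. The number of the 10 genes past the threshold and lower was 1 in place of 2, through loss of aldo-1, with library totals, upper-quartile factors, DESeq2, no low-count filter, a limit of 5 CPM and the replicate block, and 1 to 2 with a library left out. The group difference in the gpd-1 and gpd-4 share of GAPDH counts was 26.7 percentage points, the same per coding length, 25.1 to 27.5 with a library left out, and 36.4 for gpd-1 over gpd-1 plus gpd-2. The sign of pyk-1 turned with library totals (0.04) and without replicate 2 without CHX (0.11), with values from -0.29 to 0.11 over the libraries left out; the cause was not tested. With gpd-4 tested, under the looser filters, its log2 fold change was 1.72 to 1.75. No pairing of samples by replicate number was seen. Deviations from group means correlated at -0.05, -0.03 and -0.01 across genes between samples of the same number. Counting noise at this depth could hide a pairing, so it is not excluded. The replicate block gave 1225 genes. Depth limits gpd-1 and gpd-4 most, with 4 and 8 counts in all without CHX.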
